A study of Mus musculus with 8 samples.

Results

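Chemokines are small secreted or membrane-tethered proteins that guide leukocytes along a gradient by binding G protein-coupled receptors. The CXC ligands Cxcl1, Cxcl2, Cxcl3 and Cxcl5 act on the receptor CXCR2 and draw neutrophils, the CC ligands Ccl2 and Ccl7 act on CCR2 and draw monocytes, and tumor cells of the 4T1 model are known for making ligands of both kinds. Many of these genes are induced through NF-kappaB downstream of receptors for IL-1, TNF and bacterial products, and many of their mRNAs are short lived. The genes described here were 10 chemokine genes that draw neutrophils, monocytes and other leukocytes (Cxcl1, Cxcl2, Cxcl3, Cxcl5, Cxcl16, Ccl2, Ccl7, Ccl20, Ccl5 and Cx3cl1), matched by symbol to the Ensembl identifier of the count table. All 10 were among the 16341 genes counted, and all 10 passed the low-count filter that left 11717 genes for testing.

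4T1 is an established mouse mammary carcinoma cell line. RNA was sequenced from 4T1-Sca1+ and 4T1-Sca1- cells, 4 libraries each, which were separated from parental 4T1 cells with magnetic columns after staining for the surface protein Sca1. The labels also name the sorted fractions as CD45-Sca1+ and CD45-Sca1-, and the extraction text speaks of 4T1 tumor where the source field speaks of parental 4T1. No treatment, transgene or time point separated the groups, the line is the shared background of both, and nothing in the labels says that the 4 libraries of a group came from separate sorts, so p-values measure the spread between these libraries only.

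The libraries held 13561804 to 16968215 counts. Ly6a, which encodes Sca1, had 145 to 196 counts in the Sca1+ libraries and 0 to 4 in the Sca1- libraries. The epithelial markers Epcam, Cdh1, Krt7, Krt8, Krt18, Krt19 and Krt14 were abundant in all 8 libraries (summed epithelial list 54183 to 59105 normalized counts in Sca1+ and 53743 to 57955 in Sca1-). Krt5 had at most 2 counts in any library. Cdh1 (log2 fold change -0.69, edgeR adjusted p = 6.2e-10), Krt7 and Krt14 were called lower in Sca1+. Krt8 and Krt18 were called higher, and Epcam and Krt19 were not called. Of 18 leukocyte markers, 13 had at most 10 counts in every library or were not counted. Among them, Ptprc had 2 to 4 counts in Sca1+ and 0 to 1 in Sca1-, and Itgam had 1 to 3 and 1 to 4. Csf3r had at most 1 count in any library, Lyz2 at most 1 and S100a9 at most 2. The summed leukocyte list was 1113 to 1178 normalized counts in Sca1+ and 1059 to 1164 in Sca1-, with Cd14, Cd68, Cd74, Csf1r and S100a8 making up nearly all of it. Of these 5, Cd14 was lower in Sca1+ and the other 4 were higher, S100a8 with 33 to 50 counts against 3 to 10.

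In the Sca1+ libraries 8 of the 10 chemokine genes were lower than in the Sca1- libraries, 1 was higher and 1 was not called (edgeR quasi-likelihood test, adjusted p under 0.05). The set of lower genes held all 4 CXCR2 ligands, Ccl2, Ccl5, Ccl20 and Cxcl16, and the higher gene was Cx3cl1. The largest differences among the 10 were those of Cxcl3 and Cxcl2, 4.52-fold and 4.01-fold lower. Over all tested genes, 30.2% were called lower and 31.3% higher in Sca1+, 61.5% in all, so a call by itself was common in this comparison. A drop of at least 2-fold was not: it was called for 4 of the 10 chemokine genes (Cxcl2, Cxcl3, Cxcl5 and Ccl2) and for 0.879% of all tested genes. The median log2 fold change was -0.86 over the 10 genes and 0.0074 over all tested genes. For 9 of the 10 genes every Sca1+ library lay on the same side of all Sca1- libraries, as did 54.7% of all tested genes. The 10 genes were chosen with earlier results of these data known, so these contrasts with all tested genes are descriptions. In bulk RNA, fewer cells expressing a gene and less of its RNA per cell cannot be told apart, and that holds for every value given here.

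**Figure D1:**
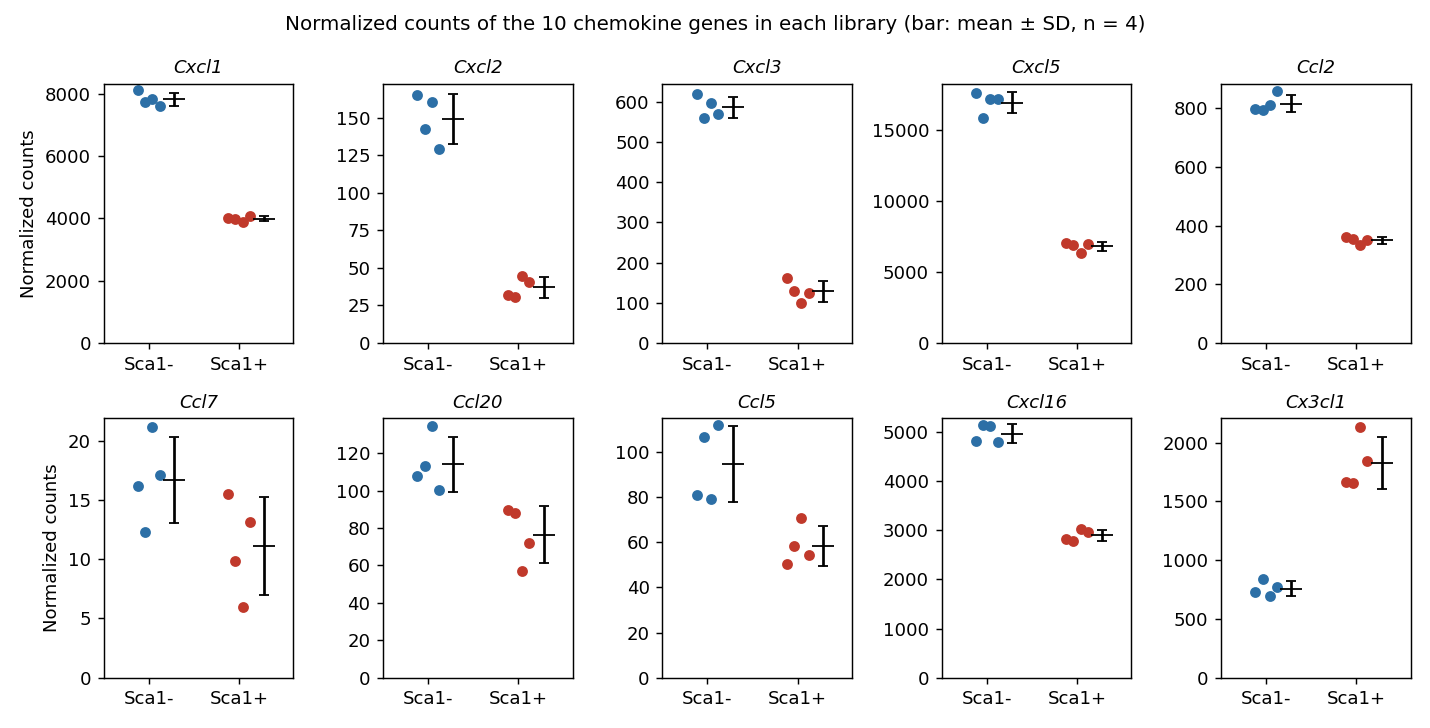
Normalized counts (y axis, from 0, a separate scale for each gene) of the 10 chemokine genes in the 4 Sca1- (blue) and 4 Sca1+ (red) libraries, with the mean ± SD of each group in black. The groups are apart for 9 genes, with Sca1+ below Sca1- for 8 of them and above for Cx3cl1, and they overlap for Ccl7.

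The promoters of these genes are shown first, because 3 of the CXCR2 ligands share the same match to an NF-kappaB consensus sequence. RefSeq promoter sequences (GRCm38.p6) were at hand for 5 of the 10 genes, Cxcl1, Cxcl2, Cxcl3, Ccl20 and Cx3cl1, and for the related genes Ppbp and Cxcl10. The 170 bases before the annotated start were searched on both strands for the NF-kappaB consensus of 10 bases, which 2.68% of 32851 promoter windows of that length held. The stretches below run 5′ to 3′ along the gene from base 170 to base 31 before the start, with the match in capitals. Where matches on the 2 strands overlap, the capitals mark both.

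Cxcl1 (chr5:90891075-90891214, + strand): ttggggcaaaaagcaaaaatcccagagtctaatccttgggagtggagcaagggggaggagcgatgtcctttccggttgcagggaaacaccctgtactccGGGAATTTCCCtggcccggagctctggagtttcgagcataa
Cxcl2 (chr5:90903729-90903868, + strand): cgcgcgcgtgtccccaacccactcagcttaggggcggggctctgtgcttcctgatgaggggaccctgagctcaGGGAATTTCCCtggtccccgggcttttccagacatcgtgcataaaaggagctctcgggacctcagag
Cxcl3 (chr5:90785931-90786070, + strand): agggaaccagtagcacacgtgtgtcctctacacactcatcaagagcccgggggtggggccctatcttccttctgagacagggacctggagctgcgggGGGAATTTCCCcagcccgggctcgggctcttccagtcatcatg
Ccl20 (chr1:83116596-83116735, + strand): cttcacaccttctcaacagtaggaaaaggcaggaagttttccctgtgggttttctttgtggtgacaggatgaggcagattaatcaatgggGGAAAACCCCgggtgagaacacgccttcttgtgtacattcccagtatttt
Cxcl10 (chr5:92348920-92349059, - strand): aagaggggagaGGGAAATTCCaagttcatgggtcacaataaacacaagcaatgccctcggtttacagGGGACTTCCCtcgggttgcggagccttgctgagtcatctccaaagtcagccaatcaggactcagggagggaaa
Ppbp (chr5:90768348-90768487, + strand): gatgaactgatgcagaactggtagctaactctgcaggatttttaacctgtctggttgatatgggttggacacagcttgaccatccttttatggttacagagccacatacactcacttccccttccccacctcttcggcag

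Cxcl1, Cxcl2 and Cxcl3 carried the same 11 letters, beginning 71, 97 and 73 bases before the RefSeq start. The RefSeq start of Cxcl2 lies inside the gene as GENCODE M21 draws it, so its larger distance depends on the annotation. Ccl20 had 1 match, which reads on the opposite strand, and Cxcl10 had 2. No match was found in the windows of Ppbp and Cx3cl1. The Cx3cl1 window is not printed because it lies inside the gene as GENCODE M21 draws it. Cxcl5, Cxcl16, Ccl2, Ccl7 and Ccl5 were not in the promoter table. A match of letters is a description of the sequence and says nothing of binding.

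Cxcl5, a neutrophil attractant that acts through CXCR2, had the most normalized counts of the 10 genes in both groups. It had 7006, 6889, 6335 and 6949.8 normalized counts in the Sca1+ libraries and 17576, 15807, 17145 and 17136 in the Sca1- libraries. The highest Sca1+ library lay well below the lowest Sca1- library. The log2 fold change of Sca1+ over Sca1- was -1.30 ± 0.05 (SE, edgeR adjusted p = 2.9e-13), a level 2.47-fold lower. Cxcl5 (ENSMUSG00000029371) lies at chr5:90759360-90761624 on the + strand of GRCm38.

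Cxcl1, the mouse gene known as KC and a main neutrophil attractant of the mouse, came next by counts. Its normalized counts were 4027, 3982, 3878 and 4089.7 in Sca1+ and 8123, 7756, 7847 and 7616 in Sca1-. All 4 Sca1+ libraries sat close together, far below the Sca1- libraries. The log2 fold change was -0.96 ± 0.04 (edgeR adjusted p = 2.9e-12), the smallest drop of the 4 CXCR2 ligands. Cxcl1 (ENSMUSG00000029380) lies at chr5:90891241-90893115 on the + strand.

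Cxcl3 and Cxcl2 (known as MIP-2) also act through CXCR2 and were far less abundant. Cxcl3 had 162, 128, 99.7 and 123 normalized counts in Sca1+ and 619.8, 559.6, 597 and 571 in Sca1-. Cxcl2 had 32.0, 30.6, 44.9 and 40.3 normalized counts in Sca1+ and 165, 143, 160.3 and 129 in Sca1-. For both genes the lowest Sca1- library was several fold above the highest Sca1+ library. The log2 fold changes were -2.18 ± 0.10 for Cxcl3 (edgeR adjusted p = 4.9e-12) and -2.003 ± 0.14 for Cxcl2 (adjusted p = 1.4e-09). Cxcl3 (ENSMUSG00000029379) lies at chr5:90786103-90789600 and Cxcl2 (ENSMUSG00000058427) at chr5:90903871-90905938, both on the + strand. Their transcripts share sequence: 6.85% of the stretches of 36 bases in Cxcl2 transcripts also occur in Cxcl3, and 5.84% of those of 50 bases. Of 66 pairs among the 10 genes, Ppbp and Cxcl10, it was the only pair that shared any, and how such reads were counted is not given in the sources used here, so part of either value may belong to the other gene.

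Ccl2 (MCP-1), the main monocyte attractant acting on CCR2, had 361, 354, 333 and 351 normalized counts in Sca1+ and 797, 796, 813 and 858 in Sca1-. No Sca1+ library came near the Sca1- range. The log2 fold change was -1.21 ± 0.06 (edgeR adjusted p = 9.1e-12), a level 2.31-fold lower. Its neighbour Ccl7 (MCP-3), which also acts on CCR2, was scarce, with 15.5, 9.86, 5.98 and 13.1 normalized counts in Sca1+ and 16.2, 12.3, 21.1 and 17.1 in Sca1-. The groups overlapped, at 6 to 17 counts in Sca1+ and 12 to 19 in Sca1-, and a difference of the size seen was not called. The estimate for Ccl7 was -0.54 ± 0.30 (edgeR adjusted p = 0.12). Ccl2 (ENSMUSG00000035385) lies at chr11:82035571-82037453 and Ccl7 (ENSMUSG00000035373) at chr11:82045712-82047525, both on the + strand.

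Ccl20, the ligand of CCR6, which attracts dendritic cells and Th17 cells, had 89.6, 87.8, 56.9 and 71.8 normalized counts in Sca1+ and 108, 113, 135 and 100.4 in Sca1-. The groups did not overlap, but the gap between them was small beside the spread within each. Its log2 fold change was -0.56 ± 0.14 (edgeR adjusted p = 0.0024). Ccl5 (RANTES), which attracts T cells and monocytes, had 50.3, 58.2, 70.8 and 54.3 normalized counts in Sca1+ and 81.2, 107, 79.0 and 112 in Sca1-. Here too the Sca1+ libraries were all lower, with the highest of them close to the lowest Sca1- libraries. The log2 fold change of Ccl5 was -0.69 ± 0.15 (edgeR adjusted p = 0.00066). Ccl20 (ENSMUSG00000026166) lies at chr1:83116766-83119167 on the + strand and Ccl5 (ENSMUSG00000035042) at chr11:83525778-83530518 on the - strand.

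Cxcl16 and Cx3cl1 (fractalkine) differ from the other genes in that they encode chemokines made as transmembrane proteins, which are released by cleavage, and their mRNAs went opposite ways. Cxcl16, the ligand of CXCR6, had 2819.6, 2787, 3025 and 2962 normalized counts in Sca1+ and 4807, 5136, 5128 and 4794 in Sca1-. All Sca1+ libraries were lower, and the log2 fold change was -0.76 ± 0.05 (edgeR adjusted p = 1.9e-10). Cxcl16 (ENSMUSG00000018920) lies at chr11:70453983-70459984 on the - strand and shares exon bases with Zmynd15 on the other strand. The library kit does not mark strand, so reads of the pair cannot be told apart there. Zmynd15 had 57 to 111 counts per library and a log2 fold change of 0.26 ± 0.14 (adjusted p = 0.11).

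Cx3cl1, the ligand of CX3CR1 and an attractant and adhesion molecule for monocytes and NK cells, had 1661, 1659.6, 2134 and 1842 normalized counts in Sca1+ and 727, 837, 693 and 768 in Sca1-. Each Sca1+ library was above every Sca1- library, and Sca1+ replicate 3 was the highest. The log2 fold change was 1.28 ± 0.08 (edgeR adjusted p = 1.8e-10), a level 2.43-fold higher, and 1.20 without Sca1+ replicate 3. Among all tested genes 5.22% were called higher by at least 2-fold. Cx3cl1 (ENSMUSG00000031778) lies at chr8:94772009-94782427 on the + strand. Endothelial cells also make fractalkine, and of 7 of their markers Tie1 was the only one tested (21 to 33 counts in Sca1+ and 30 to 42 in Sca1-, log2 fold change -0.60 ± 0.19, edgeR adjusted p = 0.012) and made up most of the list. Pecam1 went the other way below the filter, with 4 to 7 counts in Sca1+ and 0 to 2 in Sca1-. With the filter removed its log2 fold change was 2.11 ± 0.73 (edgeR adjusted p = 0.013). Esam had 4 to 8 counts in Sca1+ and 5 to 12 in Sca1-. Cdh5 had at most 3 counts, Tek at most 1 and Vwf at most 3 in any library. The summed list was 34.7 to 43.9 normalized counts in Sca1+ and 42.3 to 66.2 in Sca1-. Of 10 fibroblast markers 3 were tested, of which Col1a1 and Pdgfra were higher in Sca1+, and the summed list, most of it Pdgfra, was 635 to 671 normalized counts against 395 to 468. Postn was tested and not called, with a log2 fold change of 0.05 ± 0.24 (edgeR adjusted p = 0.87). Below the filter, Dcn had 6 to 15 counts in Sca1+ and 1 in each Sca1- library, Pdgfrb had 3 to 14 against 0 to 1, and Col1a2 had at most 8 in every library. Fap, also below the filter, leaned the other way, with 0 to 3 counts in Sca1+ and 2 to 4 in Sca1-. The part of such cells in any chemokine value was not tested.

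**Figure D2:**
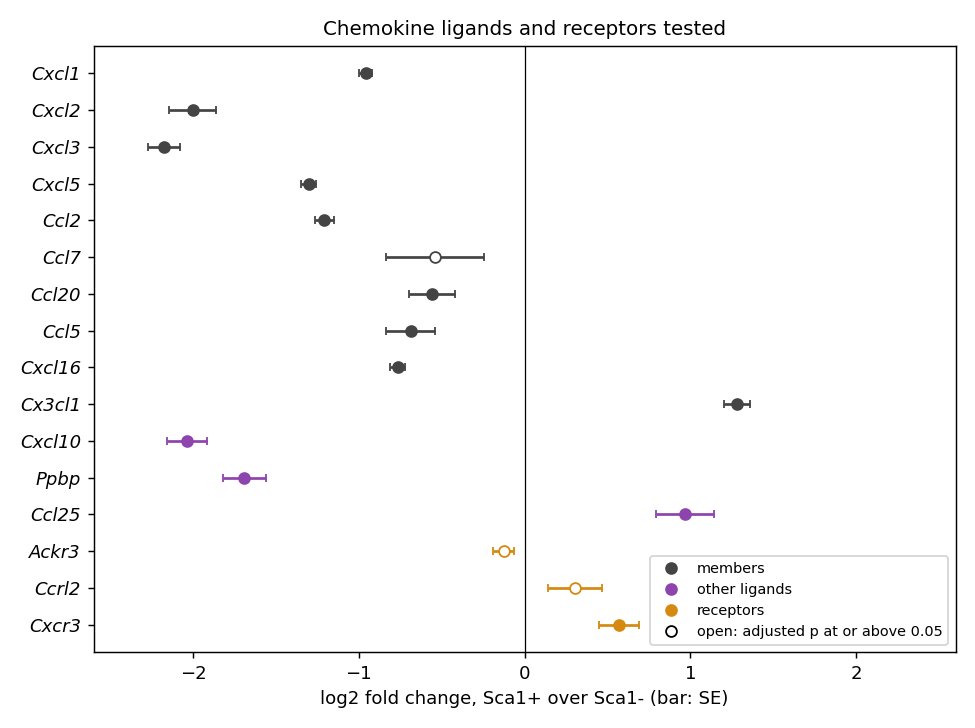
Log2 fold change of Sca1+ over Sca1- (x axis, points) with its SE (bars) for the 10 chemokine genes, 3 other ligands and 3 receptors that were tested, with open points where the adjusted p was at or above 0.05. Cxcl3, Cxcl10 and Cxcl2 lie near -2, Cx3cl1 lies at 1.28, and Ccl7, Ackr3 and Ccrl2 are open.

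Levels were compared between genes by length, as CPM on TMM-scaled totals per kilobase of exon. For Cxcl1, Cxcl2 and Cxcl3 the annotated exon length (1875, 2068 and 3498 bases) equals the whole span of the gene, so any introns count as length. Their levels may thus be understated beside those of the other genes. The order, the sum and the shares below depend on these lengths. In Sca1+ the order of the levels was Cxcl5 (241 ± 11.7, SD, n = 4), Cxcl1 (141 ± 3.49), Cxcl16 (63.4 ± 2.36), Cx3cl1 (30.7 ± 3.67) and Ccl2 (20.3 ± 0.744), with Ccl5, Ccl20, Cxcl3, Cxcl2 and Ccl7 below 5. In Sca1- it was Cxcl5 (595 ± 27.98), Cxcl1 (274 ± 7.59), Cxcl16 (108 ± 4.11), Ccl2 (47.0 ± 1.72), Cx3cl1 (12.6 ± 1.00) and Cxcl3 (10.99 ± 0.519), followed by Ccl5, Ccl20, Cxcl2 and Ccl7. At these lengths Cx3cl1 and Ccl2 held each other's place in the 2 groups. Neighbours in the order whose libraries overlapped were Ccl5 and Ccl20, Ccl20 and Cxcl3, and Cxcl2 and Ccl7 in Sca1+. In Sca1- they were Cx3cl1 and Cxcl3, Ccl5 and Ccl20, and Ccl20 and Cxcl2.

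Summed over the 10 genes, the level was 509 ± 11.99 in Sca1+ and 1065 ± 29.99 in Sca1- (SD, n = 4). Cxcl5 and Cxcl1 made up most of the sum in every library. The 4 CXCR2 ligands together gave 76.8%, 76.6%, 73.8% and 76.0% of it in the Sca1+ libraries and 84.1%, 82.0%, 83.0% and 83.1% in the Sca1- libraries. Cxcl5 alone gave 47.4% ± 1.33 in Sca1+ and 55.9% ± 1.17 in Sca1-, while Cxcl1 gave 27.7% ± 0.0777 and 25.7% ± 0.597. Cx3cl1 gave 5.43%, 5.51%, 7.26% and 5.97% of the sum in the Sca1+ libraries and 1.11%, 1.36%, 1.07% and 1.20% in the Sca1- libraries. For each of these shares the 2 groups did not overlap. The mix in Sca1+ thus held a smaller share of the 4 CXCR2 ligands together, with Cxcl5 smaller and Cxcl1 larger. It held a larger share of fractalkine, as a description with no test.

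**Figure D3:**
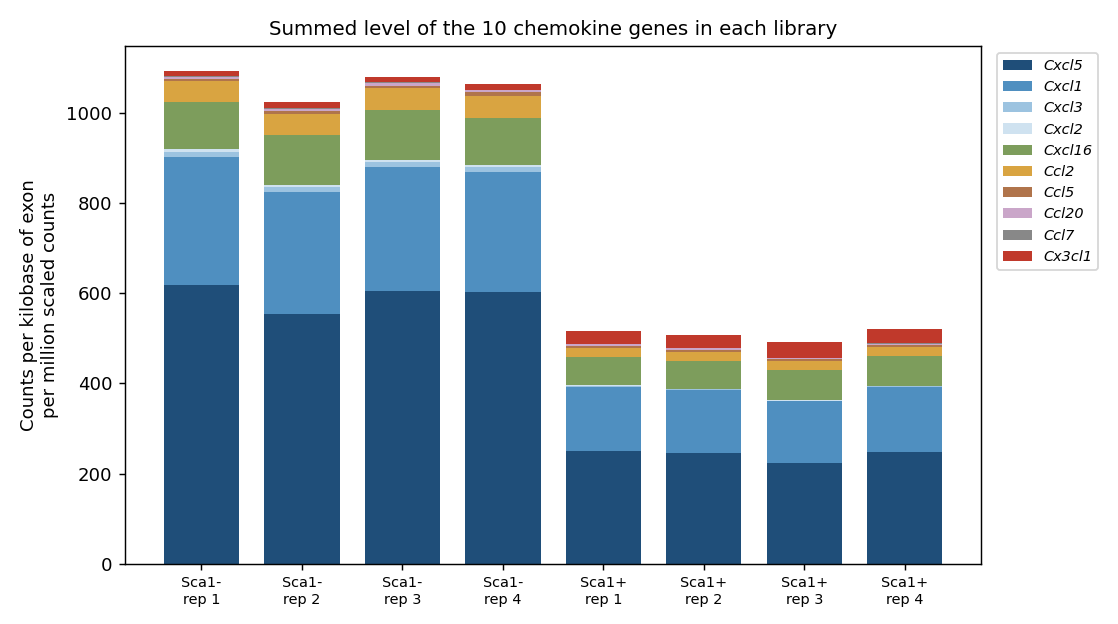
Summed level of the 10 chemokine genes (y axis, CPM on TMM-scaled totals per kilobase of exon) in each of the 8 libraries, stacked by gene. The Sca1- bars reach 1024 to 1093 and the Sca1+ bars 492 to 519, with the red segment for Cx3cl1 wider in Sca1+.

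Genes for 5 of the tested CXC chemokines stand in 1 cluster of 147 kb on chromosome 5, in the order Cxcl5, Ppbp, Pf4, Cxcl3, Cxcl1 and Cxcl2, all on the + strand. All 5 that were tested (Ppbp with the 4 CXCR2 ligands above) were lower in Sca1+, with log2 fold changes from -2.18 to -0.96. Pf4 had 0 to 3 counts per library and was not tested. The 4 other tested genes within 250 kb of the cluster, a window chosen after the values were seen, were not called lower. Areg, which encodes the EGF receptor ligand amphiregulin, was higher by 0.40 ± 0.10 (edgeR adjusted p = 0.0018) and Rassf6 by 0.17 ± 0.07 (adjusted p = 0.035). Mthfd2l and the EGF receptor ligand gene Epgn had values of 0.13 ± 0.09 and 0.19 ± 0.20 that did not pass the test.

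**Figure D4:**
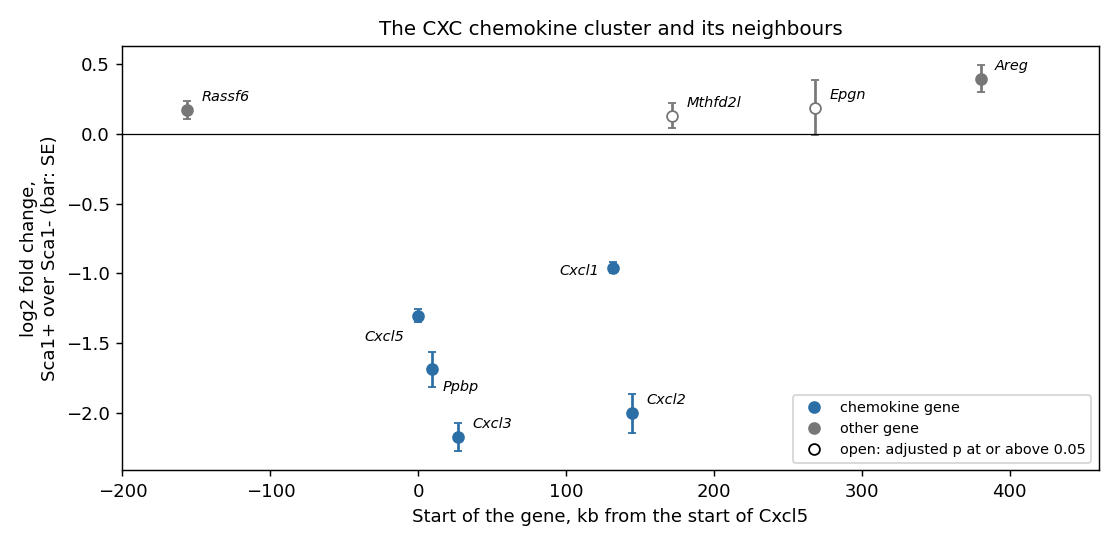
Log2 fold change of Sca1+ over Sca1- (y axis, bars SE) against the distance of each gene's start from that of Cxcl5 (x axis, kb) for chemokine genes (blue) and other tested genes (grey) within 250 kb of the cluster. The 5 chemokine genes lie between -2.18 and -0.96, and the 4 other genes between 0.13 and 0.40.

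Of 30 other chemokine ligands, 15 were counted and 3 could be tested, so most of the family was near the floor in these cells. Ppbp (CXCL7, also a CXCR2 ligand) had 73.1, 48.3, 44.9 and 55.1 normalized counts in Sca1+ and 190.05, 175, 170.3 and 191 in Sca1-. It was lower in all 4 Sca1+ libraries, with a log2 fold change of -1.69 ± 0.13 (edgeR adjusted p = 4.6e-09). Cxcl10 (IP-10), an interferon-inducible T cell attractant that acts on CXCR3, had 34.7, 40.4, 32.9 and 36.8 normalized counts in Sca1+ and 147, 157, 135 and 162 in Sca1-. Every Sca1+ library was far below the Sca1- libraries, with a log2 fold change of -2.04 ± 0.12 (adjusted p = 2.3e-10). Art3, which shares exon bases with Cxcl10 on the other strand, had at most 1 count in any library.

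Ccl25, the ligand of CCR9 known from thymus and small intestine, was higher, with 37.9 to 49.3 normalized counts in Sca1+ and 20.5 to 24.8 in Sca1-. Its log2 fold change was 0.97 ± 0.17 (edgeR adjusted p = 0.00012). Ccl25 shares exon bases with Elavl1 on the other strand, which had 1371 to 1839 counts per library, so these reads are uncertain. Ccl9 had 4 to 14 counts in Sca1+ and 5 to 11 in Sca1- and was not tested. Ccl4 (MIP-1 beta), named after its values were seen, had 0 counts in all 4 Sca1+ libraries and 3 to 7 counts in each Sca1- library. Against a floor of 3 counts over the Sca1+ group, the 22 counts of the Sca1- group gave a level 8.14-fold lower in Sca1+. The counting error of those 22 counts is not in this value, so it is not a lower bound. Cxcl5, Cxcl10 and Cxcl16 belong to a Sca1- signature that the study drew from these libraries, so their presence there is no independent evidence of direction.

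Receptors for these chemokines were largely missing from the tumor cells. Of 23 chemokine receptors, 17 were counted and 3 were tested. Cxcr2, through which the neutrophil attractants act, had at most 7 counts in any library, Ccr2 at most 1, Cx3cr1 at most 5 and Cxcr6 at most 3, while Cxcr1 and Ccr6 were not in the count table. Cxcr3, the receptor of Cxcl10, was higher in Sca1+ (113 ± 12.7 normalized counts against 76.6 ± 8.36, SD, n = 4, log2 fold change 0.57 ± 0.12, edgeR adjusted p = 0.00058). The scavenging receptor Ackr3 (475 ± 25.2 against 523 ± 34.6 normalized counts, log2 fold change -0.13 ± 0.06, adjusted p = 0.10) and the atypical receptor Ccrl2 (49.0 ± 7.24 against 39.7 ± 5.14, log2 fold change 0.31 ± 0.16, adjusted p = 0.11) were not called. Cxcr4, the receptor of Cxcl12, had 7, 10, 15 and 22 counts in the Sca1+ libraries and 3, 3, 2 and 4 in the Sca1- libraries, without overlap. It fell below the filter, and with the filter removed its log2 fold change was 1.96 ± 0.46 (edgeR adjusted p = 0.00026).

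Genes that act upstream of the chemokines, on their mRNAs or on their proteins were read from lists. These lists were chosen with earlier results of these data known, so the counts from them are descriptions. Among 12 receptors and adaptors that induce them, 6 were higher, 2 lower and 4 not called in Sca1+, a share called near the 61.5% of all tested genes. Their median log2 fold change was 0.13. Il1r1, the signalling receptor of IL-1, had 533, 535, 549.6 and 568 normalized counts in Sca1+ and 310.4, 270.0, 287 and 268 in Sca1-, with a log2 fold change of 0.96 ± 0.07 (edgeR adjusted p = 1.2e-09). The TNF receptor genes Tnfrsf1b (0.74 ± 0.05, adjusted p = 2.4e-09) and Tnfrsf1a (0.58 ± 0.05, adjusted p = 8.2e-09) were higher too. Tlr2 (-0.54 ± 0.08, adjusted p = 1.9e-05) and Tlr3 (-0.40 ± 0.08, adjusted p = 0.00022), which sense bacterial lipoproteins and double-stranded RNA, were lower, and Traf3ip2, the IL-17 receptor adaptor, was at -0.02 ± 0.06 (adjusted p = 0.77). Traf3ip2 shares exon bases with E130307A14Rik on the other strand, which had 12 to 21 counts per library.

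NF-kappaB genes were mostly lower. Of the 14 on the list, 11 were lower and 3 higher in Sca1+, beside 30.2% lower and 31.3% higher over all tested genes, with a median log2 fold change of -0.43 against 0.0074 over all tested genes. The list mixes subunits, kinases and inhibitors, and both subunits and inhibitors were among the lower genes. The count therefore gives no direction for NF-kappaB activity, which was not tested. Tnfaip3 (A20), an inhibitor of NF-kappaB that is itself a target of it, had 2936, 2915, 2795 and 2937 normalized counts in Sca1+ and 5995, 5696, 6040.0 and 5604 in Sca1-. Its log2 fold change was -0.998 ± 0.04 (edgeR adjusted p = 3.5e-12). The subunit genes Nfkb2 (-0.85 ± 0.06, adjusted p = 6.5e-10) and Rel (-0.85 ± 0.12, adjusted p = 7.7e-06) followed. The 3 higher genes were Ikbkg (NEMO, 1.14 ± 0.06, adjusted p = 1.3e-11) and Ikbkb (0.16 ± 0.04, adjusted p = 0.0046), both of the IkappaB kinase complex, and Bcl3 (0.55 ± 0.09, adjusted p = 4.2e-05), a nuclear IkappaB protein. Ikbkg shares exon bases with G6pdx on the other strand, which had 2275 to 3029 counts per library and a log2 fold change of 0.05 ± 0.05 (adjusted p = 0.38), and Nfkb2 shares them with Psd.

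**Figure D5:**
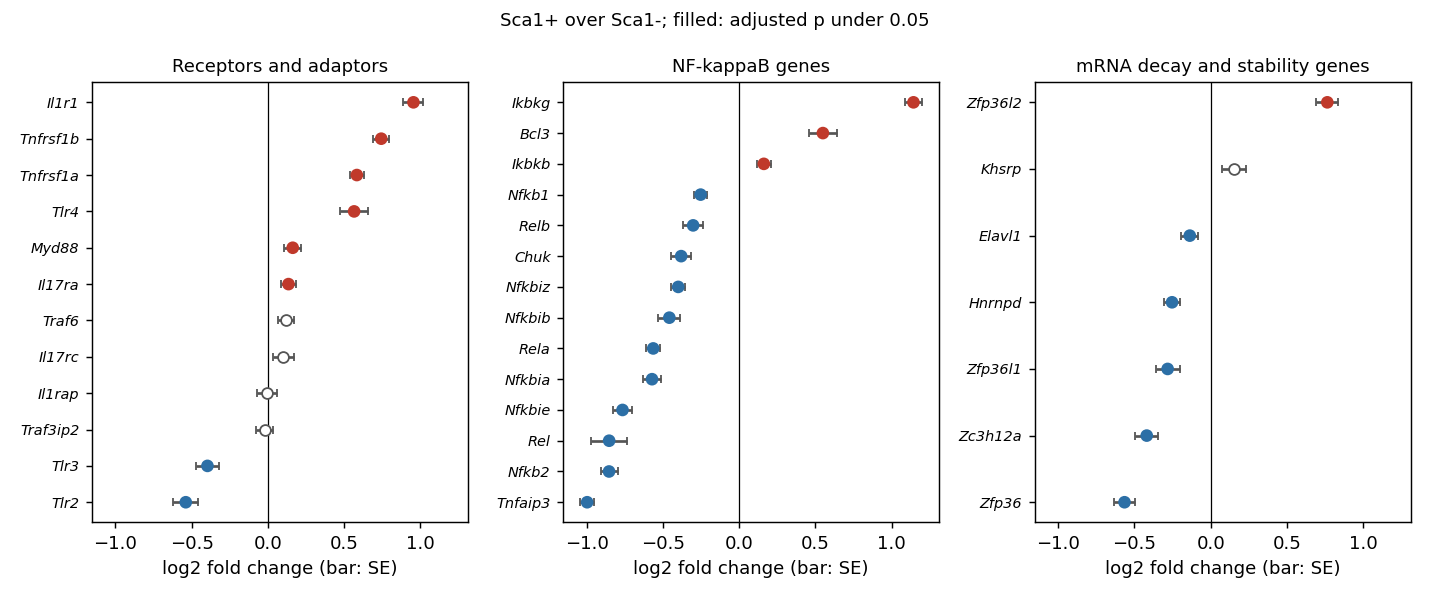
Log2 fold change of Sca1+ over Sca1- (x axis, bars SE) for the tested receptors and adaptors (left), NF-kappaB genes (middle) and mRNA decay and stability genes (right), red where higher, blue where lower and open where the adjusted p was at or above 0.05. In the middle panel 11 of 14 genes lie below 0, from Tnfaip3 at -0.998 to Nfkb1 at -0.25, and Ikbkg stands highest at 1.14.

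Chemokine mRNAs with AUUUA pentamers in the 3′ UTR are known targets of decay factors such as tristetraprolin, encoded by Zfp36. On the longest annotated transcript with a 3′ UTR, Cxcl1 held 7 such pentamers in 595 bases (11.8 per kilobase), Ccl20 held 9 in 1053 (8.55), Cxcl3 held 5 in 648 (7.72) and Cxcl2 held 11 in 1497 (7.35). Only 0.303% of the 10907 tested genes with a 3′ UTR of at least 100 bases reached the density of Cxcl1, and 1.77% that of Cxcl2. Ccl7, which was not called, held 4.57 per kilobase, Cxcl5 4.49 and Ccl2 3.60. Cxcl16 held 2 in 1424 bases (1.40), Cx3cl1 held 1 in 1874 (0.534) and Ccl5 held 0 in 202. Of the related genes that were lower, Cxcl10 held 3.00 per kilobase and Ppbp 1.52. The median over the tested genes with such a 3′ UTR was 1.34 per kilobase. Whether the density goes with the direction or size of a change was not tested.

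Of 7 decay and stability genes, 5 were lower and 1 was higher in Sca1+, beside 30.2% lower and 31.3% higher over all tested genes, and their median log2 fold change was -0.25. Zfp36 (-0.56 ± 0.07, edgeR adjusted p = 2.2e-06), Zc3h12a, which encodes the chemokine mRNA nuclease regnase-1 (-0.42 ± 0.08, adjusted p = 0.00011), and Zfp36l1 (-0.28 ± 0.08, adjusted p = 0.0047) were lower. Zfp36l2 was higher by 0.77 ± 0.07 (adjusted p = 8.2e-08). The stabilising factor gene Elavl1 had -0.14 ± 0.06 (adjusted p = 0.041), a call that was lost in 9 of 18 alternatives, among them those without Sca1+ replicate 3 or 4 or without Sca1- replicate 1, 2 or 4. Khsrp had 0.15 ± 0.08 (adjusted p = 0.098), which was called higher in 5 of 18 alternatives (library totals alone, no filter, and without Sca1+ replicate 1, Sca1+ replicate 2 or Sca1- replicate 2) and turned to -0.0034 after a correction for GC content.

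Genes for the enzymes that cleave Cxcl16 and Cx3cl1 from the membrane were not called. The protease genes Adam10 (0.01 ± 0.07, edgeR adjusted p = 0.90) and Adam17 (0.07 ± 0.05, adjusted p = 0.23) and the genes Rhbdf1 (0.02 ± 0.06, adjusted p = 0.83) and Rhbdf2 (0.11 ± 0.06, adjusted p = 0.12), which support ADAM17 maturation, did not pass the test. Adam17 shares exon bases with Iah1 on the other strand. Iah1 had 125 to 201 counts per library and a log2 fold change of 0.37 ± 0.09 (adjusted p = 0.0016). After a correction for GC content Adam10 (0.11) and Adam17 (0.14) were called higher and Rhbdf1 (-0.13) lower, and Rhbdf2 was called higher with library totals alone (0.15) and without Sca1+ replicate 2 (0.15). Dpp4, which encodes a protease that trims chemokines, was not in the count table.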

How the data were processed

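RNA of 4 Sca1+ and 4 Sca1- samples of the 4T1 line was sequenced from TruSeq v2 libraries, which do not mark strand. The submitters' processing notes name cutadapt 1.16, STAR 2.5.3a and GRCm38 (mm10), and the counting tool and annotation are not given in the sources used here. The authors deposited whole-number counts per gene, which were tested with edgeR 4.0.16 (filterByExpr with a minimum count of 10, TMM scaling, quasi-likelihood test, Benjamini-Hochberg adjustment over all 11717 genes tested). The deposited normalized signal equals counts divided by DESeq2 1.42.0 size factors and is called normalized counts. Positions and exon lengths came from GENCODE M21, and promoters from RefSeq (GRCm38.p6). The member genes and all gene lists were chosen with earlier results of these data known. Named in the text were all 10 members, other ligands and receptors past the filter or with 10 counts in a library, and in each list of regulators the 3 highest and 3 lowest tested genes. The permutation test planned for members under the filter was not needed, since all 10 passed. Counting error and library spread limit the precision at these depths.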

Additional observations from a re-analysis of the deposited data

Results flagged for a closer look

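Within the groups of 4 libraries, 76 group values of 38 genes were examined for a library far from the other 3, and 5 stood out by Dixon's ratio, where chance gives about 3.8. None belonged to the 10 chemokine genes. In Sca1+ replicate 3, Tnfaip3 was low at 2795 normalized counts (2915 to 2937 in the others), Zfp36l2 was high at 7324 (6181 to 6318) and Rhbdf1 was high at 3453 (2906 to 2938). In Sca1- replicate 2, Tnfrsf1a was high at 1155 (1098 to 1107) and Khsrp was high at 7804 (6579 to 6743).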

How the results depend on the processing

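All 10 members kept their direction and their side of the threshold under every alternative run, 18 each and 17 for Ccl7, which was not tested where 10 counts were asked of every library. The log2 fold changes ranged from -2.31 to -2.08 for Cxcl3, from -1.34 to -1.19 for Cxcl5, from -0.65 to -0.43 for Ccl20 and from 1.13 to 1.33 for Cx3cl1. Replicate numbers did not pair the libraries (correlations of same-numbered libraries 0.0957, -0.15, -0.0339 and -0.00107), and with the replicate block 8 members were lower and 1 higher, 2 other ligands lower and 1 higher, 1 receptor higher, and 18 regulators lower and 10 higher. When a change of 2-fold or more was also asked for, the calls were 4 members lower, 0 other ligands higher, 0 receptors higher, and 1 regulator higher and 0 lower. Limma on log2(value + 1) called 5 other ligands lower (Ccl4, Cxcl11 and Pf4 added) and 2 higher (Cxcl9 added), and 4 receptors higher (Cxcr4, Ccr4 and Ccr7 added). Receptors called higher were 3 without the filter and 3 by DESeq2 (Cxcr4 and Ccr4 added), and 1 to 2 when leaving out a library, Cxcr4 being added without Sca1+ replicate 1 or any Sca1- library, because the filter then kept it. With the longest transcript as length, CXCR2 ligands gave 73.5% (Sca1+) and 81.5% (Sca1-) of the summed level, and Cx3cl1 6.94% and 1.38%. For Cxcl1, Cxcl2 and Cxcl3 that length (1871, 2066 and 3498 bases) also covers nearly the whole gene, so this alternative does not address introns.

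Values near 0 changed sign: Traf3ip2 was 0.0084 with upper-quartile scaling and 0.021 with library totals alone. With GC-corrected offsets Khsrp was -0.0034, Rhbdf1 -0.13 (adjusted p = 0.0038) and Rhbdf2 -0.084, and Adam17 was called at 0.14 and Adam10 at 0.11. Adam10 was -0.0026 without the filter, -0.0021 by DESeq2, -0.0021 by limma on log2(value + 1) and -0.038 to 0.061 when leaving out a library, and Rhbdf1 was -0.051 to 0.036. The cause was not tested. Depth limits Ccl7, Ccl9, Ccl4, Cxcr4 and the receptors under the filter, at no more than 22 counts per library.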

Other observations

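Within 250 kb of Cx3cl1 and Ccl17 on chromosome 8, 12 other genes were tested, of which 5 were higher and 2 lower in Sca1+ by edgeR, a share called near the 61.5% of all tested genes. Among them Adgrg3 (log2 fold change 1.37 ± 0.05) and Adgrg1 (1.33 ± 0.15), which encode adhesion G protein-coupled receptors, and Nlrc5, an activator of MHC class I genes (0.91 ± 0.06), were higher, and Coq9 (-0.61 ± 0.07) was lower. Ccl17 itself had at most 1 count in any library. Around Ccl5 on chromosome 11, 6 other genes were tested, of which 1 was higher, 2 were lower and 3 were not called, beside 61.5% called over all tested genes. Mmp28 was higher (1.23 ± 0.34, at 4 to 18 counts) and Ap2b1 (-0.37 ± 0.04) and Taf15 (-0.28 ± 0.05) were lower. Mmp28 shares exon bases with 1700020L24Rik on the other strand, which had 3 to 11 counts per library. Ccl3 and Ccl6 nearby had at most 6 counts in any library. These windows were set after the values were seen.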
